A study of Mus musculus with 7 samples.

Results

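Ketone synthesis and the carnitine shuttle were followed through the HNF4a signal at 7 genes: Bdh1, Acat1, Cpt1a, Cpt2, Crat, Crot and Fgf21. Every region of the deposited HNF4a table whose assigned gene is 1 of these 7 was taken, whatever its distance or annotation, which gave 45 of 39704 regions. Binding was measured by chromatin immunoprecipitation with sequencing, with antibody ab41898, in mouse liver. HNF4a is a nuclear receptor needed for the hepatocyte programme. There were 3 libraries of genotype AMPKCA (AMPK-CA, constitutively active AMP-activated protein kinase) and 3 of genotype Wildtype (WT), 1 of each in each of 3 labelled batches. All mice of both groups ate a high-fat diet with doxycycline for 14 days. The promoter or cell type that drives the active kinase and the age of the mice are not given in the sources used here. Each library carries the code of a different animal.

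In the fed-to-fasted transition, long-chain fatty acids enter liver mitochondria as carnitine esters, are oxidized to acetyl-CoA, and leave the liver as ketone bodies. CPT1 on the outer mitochondrial membrane makes the carnitine ester and is inhibited by malonyl-CoA, and CPT2 on the inner membrane turns it back to acyl-CoA. AMPK phosphorylates acetyl-CoA carboxylase, the enzyme that makes malonyl-CoA, and so relieves CPT1. FGF21 is a hormone that the liver secretes in fasting and under other metabolic stress.

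Depth in regions ran from 536027 to 1622087 recovered reads over the 6 libraries. WT replicate 1 stood apart, with 19.4% of its reads in promoter regions against 11.7% to 14.2% in the other 5, so values without it or without its batch are given where they matter. The 6 hepatocyte marker genes all had HNF4a regions, with 57 in all, whereas 3 of 4 cholangiocyte, 1 of 3 stellate, 3 of 3 endothelial and 0 of 3 Kupffer cell markers had any. In whole liver, fewer cells of a type and less binding per cell cannot be told apart. Values are normalized reads per region on the authors' scale, on which a change common to most regions would not be seen. Differences were tested with limma on log2(value + 1.80) over all 39704 regions, without batch and then with the labelled batch as a block.

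HNF4a regions lay at all 7 genes but were spread unevenly. Bdh1, whose product reduces acetoacetate to beta-hydroxybutyrate, had 14 regions, a number that only 1.23% of the table's genes reach or exceed. Crot, the peroxisomal carnitine octanoyltransferase, had 9, Cpt1a, the liver CPT1, had 8, and Acat1, the mitochondrial acetoacetyl-CoA thiolase, and Fgf21 had 5 each. The Crot region 49.4 kb downstream is annotated as intronic but lies beyond the end of Crot, which spans 31114 bases. Cpt2 and Crat, the carnitine acetyltransferase, had 2 each, which is the median of all genes in the table. Of the 45 regions, 21 were intergenic, 17 intronic, 5 at promoters, 1 in an exon and 1 at a gene end. They ranged from 0.05 kb to 114 kb from the start site, and 7 lay within 1 kb. Within 10 kb lay 5 of the 14 at Bdh1, 1 of the 9 at Crot and 6 of the 8 at Cpt1a. For Acat1 it was 5 of 5, for Fgf21 3 of 5, and for Cpt2 and Crat 2 of 2 each. Acat1 alone among the 7 had no region within 1 kb, and its nearest lay 2.98 kb away in intron 1.

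**Figure D1:**
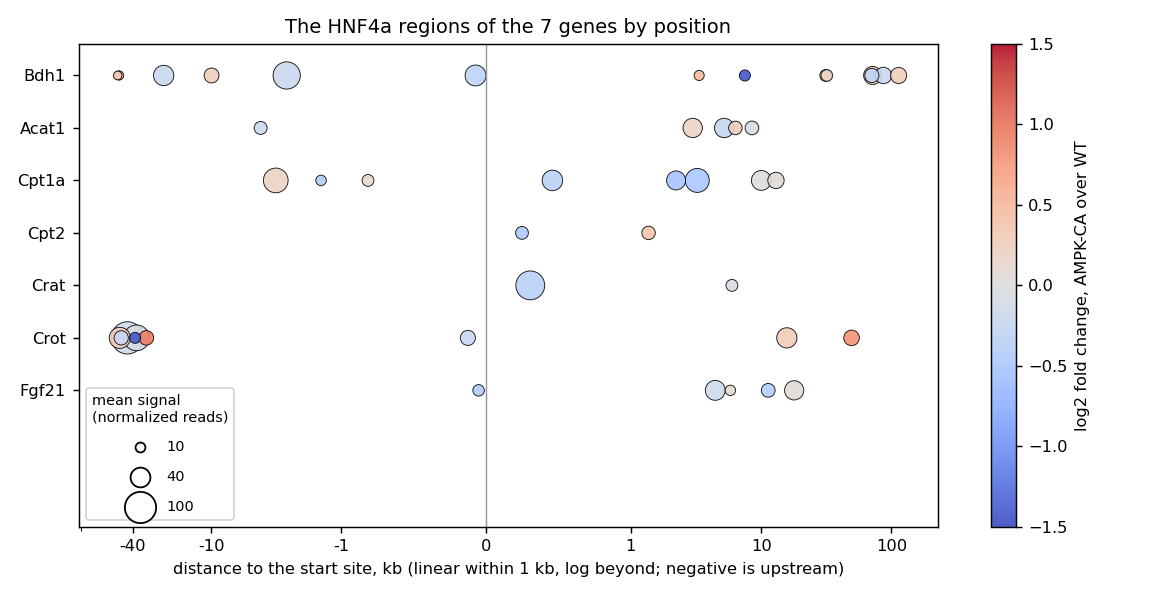
Position of the 45 HNF4a regions relative to the start site of the assigned gene, in kb, with circle area in proportion to the mean of the 6 libraries and colour giving the log2 fold change of AMPK-CA over WT. The strongest region lies 43.9 kb upstream of Crot, and the 2 deepest blue circles are 7.5 kb downstream of Bdh1 and 38.3 kb upstream of Crot.

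The 45 regions were bound more strongly than the table's middle. Their median signal was 23.3 normalized reads, against 17.4 over all regions, and 31 of them were above that value. Divided by length, the medians were 41.1 normalized reads per kb for the 45 regions and 33.3 for all regions. Summed over all of a gene's regions and divided by the length covered, AMPK-CA libraries averaged 52.2 ± 7.83 normalized reads per kb at Crot, 48.6 ± 12.6 at Crat, 46.8 ± 5.05 at Bdh1, 45.0 ± 3.05 at Cpt1a, 41.8 ± 5.21 at Acat1, 33.5 ± 3.19 at Cpt2 and 30.8 ± 3.98 at Fgf21 (mean ± SD, n = 3). In WT libraries the order began with Crat at 65.9 ± 36.9, followed by Crot at 52.5 ± 12.1, Cpt1a at 51.7 ± 2.09, Bdh1 at 49.7 ± 4.27, Acat1 at 45.8 ± 6.92, Fgf21 at 34.2 ± 3.83 and Cpt2 at 33.4 ± 12.3. Neighbours in either order differed by less than their spread, except that in AMPK-CA libraries the lowest value at Acat1, 37.7, was above the highest at Cpt2, 36.8, and in WT libraries the lowest at Acat1, 38.3, was just above the highest at Fgf21, 38.2. The strongest region held 85.5% of the summed signal at Crat but only 21.0% at Bdh1 and 21.2% at Cpt1a.

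RefSeq promoter sequence (GRCm38.p6, the build mm10 of the table) was matched for 5 of the 7 genes, not for Acat1 and Crat. The 250 bases upstream of the start site lay wholly inside an HNF4a region at the first of 2 Bdh1 start sites, at Crot and at Fgf21, and these 3 are shown, 5′ to 3′ on the gene's strand, since the start-site signal described below was read over them. Capitals mark matches, on either strand, to the core CAAAG or to the receptor sites AGGTCA and AGTTCA.
Bdh1 (chr16:31422047-31422296, plus strand): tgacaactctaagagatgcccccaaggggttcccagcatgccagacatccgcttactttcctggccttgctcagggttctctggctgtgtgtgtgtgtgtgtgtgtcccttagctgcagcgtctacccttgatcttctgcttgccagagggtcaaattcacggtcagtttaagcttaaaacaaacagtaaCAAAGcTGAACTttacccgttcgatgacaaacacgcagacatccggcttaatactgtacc
Crot (chr5:8997147-8997396, minus strand): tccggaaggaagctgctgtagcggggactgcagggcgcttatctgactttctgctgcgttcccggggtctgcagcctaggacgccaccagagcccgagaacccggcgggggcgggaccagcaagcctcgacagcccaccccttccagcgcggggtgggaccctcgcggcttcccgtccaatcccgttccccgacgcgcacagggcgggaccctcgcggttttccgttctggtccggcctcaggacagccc
Fgf21 (chr7:45615491-45615740, minus strand): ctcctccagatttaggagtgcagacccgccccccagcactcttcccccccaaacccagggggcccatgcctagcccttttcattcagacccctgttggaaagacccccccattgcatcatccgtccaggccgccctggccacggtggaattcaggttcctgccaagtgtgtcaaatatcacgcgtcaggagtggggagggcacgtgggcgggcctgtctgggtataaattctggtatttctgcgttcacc

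The Bdh1 window held 1 CAAAG and, on the other strand, 1 AGTTCA beginning 60 and 54 bases upstream of the start site, separated by 1 base. The Cpt1a window, with 117 of its 250 bases in a region, held 1 CAAAG beginning 227 bases upstream and, on the other strand, 1 AGGTCA beginning 94 bases upstream. The windows of Crot, Fgf21, Cpt2 (16 of 250 bases in a region) and the second Bdh1 start site (chr16:31428503-31428752, 0 bases in a region) held none of the 3 pieces. The longer HNF4a motif CAAAGTCCA, its shorter form CAAAGTCC and the direct repeat with 1 spacer base, searched as an exact and a relaxed form that contains it, had no match on either strand in the promoter windows of the 5 genes. Among 32851 promoter windows of the same length, CAAAGTCCA occurred in 0.384%, CAAAGTCC in 1.20%, the exact repeat in 0.0152% and the relaxed one in 0.338%. The shorter pieces were searched after the longer ones had no match, and occurred in 48.6% (CAAAG), 14.0% (AGGTCA) and 11.8% (AGTTCA) of windows. G and C made up 69.6% of the Crot window, 59.6% of the Fgf21 window and 49.6% of the Bdh1 window, against a median of 52.4% over all windows.

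None of the 45 regions differed between AMPK-CA and WT livers at an adjusted p of 0.05, by limma without or with the batch block. Without the block the smallest adjusted p among them was 1.00, and with the batch block it was 0.436. Over all 39704 regions, 0% passed without the block and 0.0579% with it. At an unadjusted p under 0.05 there were 2 member regions without the block, against 2.46% of all regions, and 4 with it, against 7.27%. Of the 4, 2 were lower in AMPK-CA (3.16% of all regions) and 2 higher (4.11%). EdgeR on the recovered reads also called 0 of the 45, its unadjusted p being under 0.05 at 1 region, or at 3 with batch blocked, and DESeq2 called 0, its unadjusted p being under 0.05 at 0 regions, or at 2 with batch blocked. Limma with library weights called 1 of the 45, the Crot region 38.3 kb upstream, against 2.32% of all regions. By sign, 21 regions had a positive log2 fold change, against 50.6% of all regions, and 24 a negative one, with a median of -0.06, against 0.01 over all regions. AMPK-CA was lower in all 3 batches at 10 regions (14.6% of all regions) and higher in all 3 at 4 (13.5%), and the groups did not overlap at 2 regions, both lower in AMPK-CA, against 3.27% lower and 4.64% higher over the table.

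**Figure D2:**
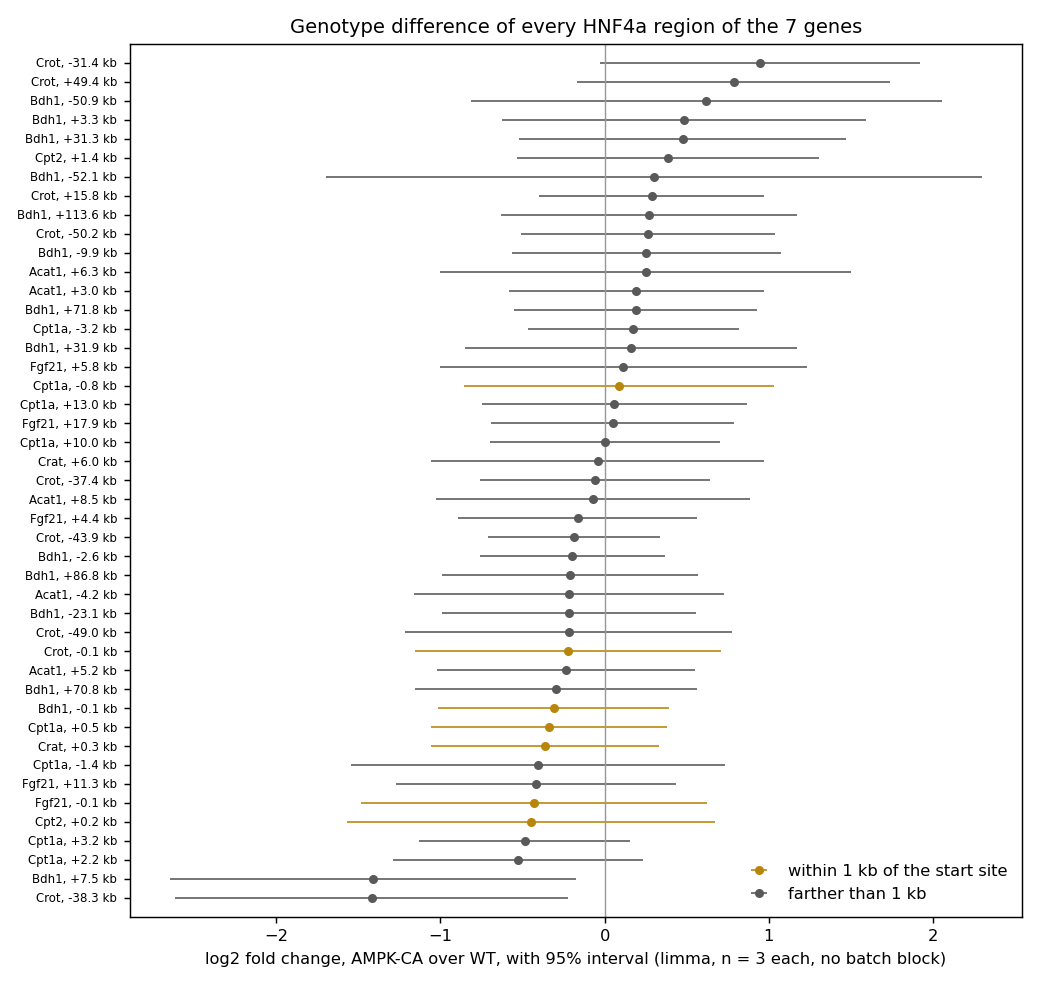
Log2 fold change of AMPK-CA over WT with its 95% interval (limma, n = 3 each, no batch block) for each of the 45 regions, sorted by size and labelled by gene and distance to the start site in kb. Gold marks the 7 regions within 1 kb of a start site, 6 of which are below 0, and the intervals of 2 regions, at Bdh1 and Crot, leave out 0.

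When each gene's regions were summed, Cpt1a gave the only groups that did not overlap. Its 8 regions together had 263, 295 and 263 normalized reads in AMPK-CA livers of batches 1, 2 and 3, and 318, 325 and 300 in WT livers. Each AMPK-CA library was thus below each WT library, which held for 4.17% of all 13644 genes in that direction. The log2 fold change was -0.20 ± 0.16 (SE), with a 95% interval of -0.54 to 0.14, and the difference did not pass (limma adjusted p = 1.00, and 0.770 with the batch block).

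The remaining 6 gene sums overlapped between the genotypes. Bdh1 had 370, 375 and 307 normalized reads in AMPK-CA and 338, 377 and 401 in WT livers. Acat1 had 113, 144 and 121 in AMPK-CA and 115, 157 and 142 in WT livers, and Fgf21 had 126, 122 and 98.6 in AMPK-CA and 127, 144 and 115 in WT livers. Both were lower in AMPK-CA in each batch, as was Cpt1a, a pattern held by 18.3% of all gene sums. Crot had 311, 420 and 358 in AMPK-CA and 295, 459 and 343 in WT livers, and batch 2 was the highest in both genotypes. The 95% intervals of the log2 fold change ran from -0.43 to 0.26 at Bdh1, -0.56 to 0.31 at Acat1, -0.59 to 0.28 at Fgf21 and -0.40 to 0.40 at Crot. Cpt2 had 38.6, 34.9 and 31.9 in AMPK-CA and 50.0, 28.5 and 27.0 in WT livers, and its interval was wider, -0.67 to 0.76. Crat had 109, 68.9 and 75.0 in AMPK-CA and 185, 96.6 and 61.1 in WT livers, with an interval of -1.01 to 0.39. At Crat the log2 fold change was -0.31 with all libraries and 0.10 without WT replicate 1.

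**Figure D3:**
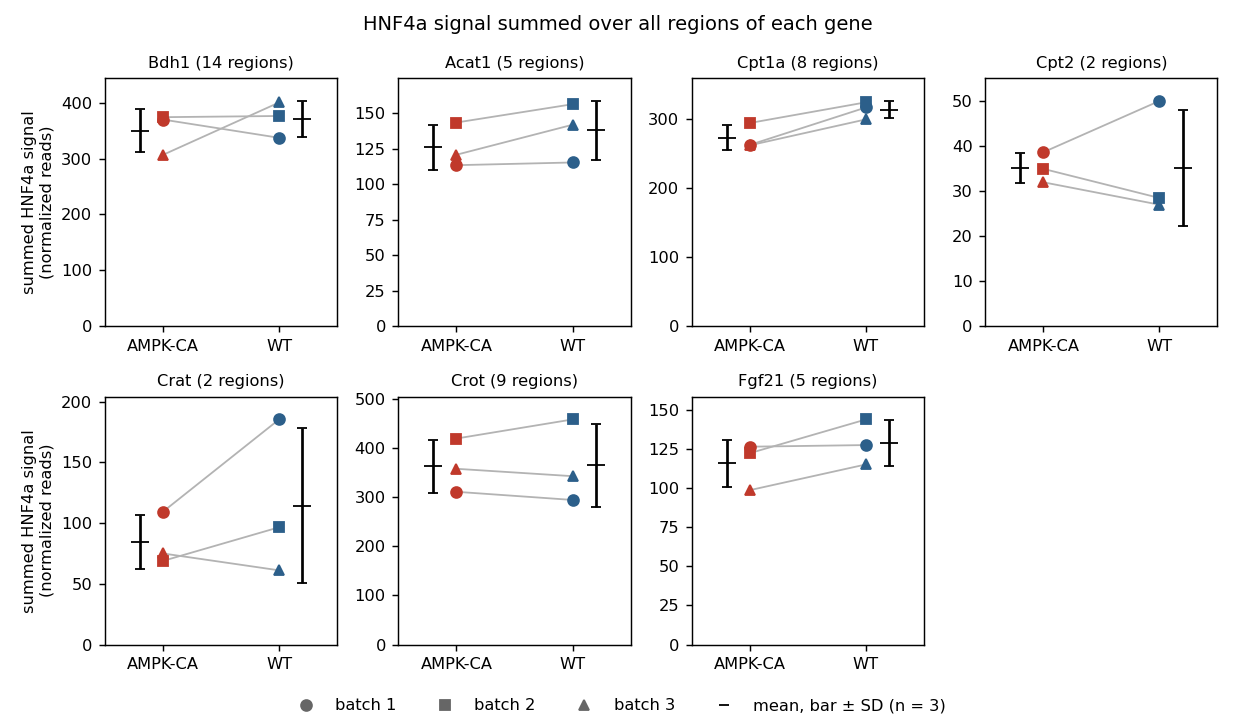
HNF4a signal summed over all regions of each gene, in normalized reads, for the 3 AMPK-CA (red) and 3 WT (blue) libraries, with grey lines joining libraries of the same batch and black marks giving mean and SD. Cpt1a is the gene whose AMPK-CA points, 263 to 295, all lie below its WT points, 300 to 325.

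Among the ketone synthesis genes, Bdh1 was bound most strongly 2.63 kb upstream (chr16:31419285-31420051, intergenic). That region had 59.6, 73.7 and 79.2 normalized reads in AMPK-CA and 82.0, 85.4 and 75.5 in WT livers. AMPK-CA was lower in batches 1 and 2 and higher in batch 3 (log2 fold change -0.20 ± 0.27, limma adjusted p = 1.00). The Bdh1 promoter region (chr16:31421898-31422550), which covers the sequence printed above, had 31.4, 51.4 and 36.1 in AMPK-CA and 36.0, 60.7 and 52.1 in WT livers. The groups overlapped, but within each batch AMPK-CA was lower, by log2 differences of -0.19, -0.23 and -0.51. There the log2 fold change was -0.31 with all libraries and -0.52 without WT replicate 1.

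The largest difference at Bdh1 was 7.51 kb downstream of the start, in intron 1 of 6 (chr16:31429501-31430105). This weak region had 15.3, 2.91 and 2.78 normalized reads in AMPK-CA and 26.0, 12.0 and 16.2 in WT livers, which stand for 19, 3 and 2 recovered reads against 39, 16 and 9. AMPK-CA was lower within each batch, although its batch 1 library exceeded the batch 2 WT library. The log2 fold change was -1.41 ± 0.60, with a limma p of 0.027 before adjustment and an adjusted p of 1.00, and with the batch block the adjusted p was 0.449. Without batch 1 the blocked log2 fold change was -1.76. The other 11 regions of Bdh1 had log2 fold changes between -0.30 and 0.62.

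At Acat1 the 2 strongest regions both lay in intron 1 of 11 and pointed in opposite directions. The region 2.98 kb downstream (chr9:53607045-53607686), the nearest to the start site, had 29.0, 45.6 and 45.8 normalized reads in AMPK-CA and 23.3, 55.4 and 30.6 in WT livers. The region 5.20 kb downstream (chr9:53604785-53605510) had 42.7, 32.0 and 27.8 in AMPK-CA and 62.7, 23.2 and 43.1 in WT livers. Groups overlapped at both, the sign differed between batches at both, and the limma adjusted p was 1.00 for each. Their log2 fold changes, 0.19 and -0.24, were -0.066 and 0.080 without WT replicate 1. A further region assigned to Acat1 lies at the end of the neighbouring gene Cul5.

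Among the carnitine shuttle genes, Cpt1a had its strongest region upstream and the one nearest the start in intron 1 of 18, and the signs of their differences were opposite. Its strongest region, 3.19 kb upstream (chr19:3319711-3320512, intergenic), had 49.9, 81.5 and 66.7 normalized reads in AMPK-CA and 45.4, 78.6 and 52.1 in WT livers. AMPK-CA was higher in each batch there, by log2 differences of 0.13, 0.05 and 0.34. The region nearest the start site (chr19:3323184-3324333, 0.46 kb downstream) had 45.1, 33.0 and 33.3 in AMPK-CA and 68.0, 44.2 and 34.2 in WT livers. In that region AMPK-CA was lower in each batch, by -0.58, -0.40 and -0.03. Its log2 fold change was -0.34 with all libraries, -0.077 without WT replicate 1 and 0.0036 with library weights, and that of the upstream region was 0.18 with all libraries and 0.015 without WT replicate 1. A weaker region 0.816 kb upstream (chr19:3322162-3322808) is the one annotated as the Cpt1a promoter. It had 12.9, 19.4 and 12.5 in AMPK-CA and 14.0, 12.7 and 14.4 in WT livers, and its sign differed between batches.

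A region 3.23 kb downstream in intron 1 of Cpt1a (chr19:3326028-3327042), named here after its values were seen, had 37.8, 50.5 and 57.0 in AMPK-CA and 50.7, 78.6 and 77.3 in WT livers. Its within-batch log2 differences were close to each other, at -0.41, -0.62 and -0.43, and the groups still overlapped because batch 1 was low in both genotypes. The log2 fold change was -0.49 ± 0.31, with an adjusted p of 1.00 by limma and 0.719 with the batch block, and -0.53 in the blocked fit without batch 1. For this region the authors' deposited table gives a mean ratio of 0.708 and a p-value of 0.000945, not adjusted. The deposited p-values under 0.05 in that table covered 8 of the 45 regions, and 12.4% of all regions. A test of the 3 AMPK-CA over WT ratios against 3 values of 1, in which the WT side has no spread, gave p-values within 0.000595 of the deposited ones in all 39329 regions where it could be run.

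Cpt2 had a region over exon 1 of 5 (chr4:107923077-107923605) with 21.7, 4.85 and 15.3 normalized reads in AMPK-CA and 33.4, 8.99 and 16.2 in WT livers. Its other region, 1.37 kb downstream in intron 1 of 4 (chr4:107921960-107922481), had 16.9, 30.1 and 16.7 in AMPK-CA and 16.7, 19.5 and 10.8 in WT livers. AMPK-CA was lower in each batch at the first and higher in each batch at the second, and the groups overlapped at both. The gap was under 1 read in batch 3 at the first and in batch 1 at the second. There 1 read stood for 1.39 (AMPK-CA) and 1.80 (WT) normalized reads in batch 3, and 0.805 and 0.667 in batch 1. The log2 fold changes were -0.45 ± 0.54 and 0.38 ± 0.44, and neither passed (limma adjusted p = 1.00 for each). Without WT replicate 1 the exon 1 value was -0.0049 and the intron 1 value 0.44.

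Crat, which exchanges acetyl groups between CoA and carnitine, owed most of its signal to a region 0.305 kb downstream of its start (chr2:30414919-30415967), which the table annotates as the promoter of Ppp2r4, its neighbour. It had 93.4, 58.2 and 61.1 normalized reads in AMPK-CA and 160, 85.4 and 52.1 in WT livers. AMPK-CA was lower in batches 1 and 2 and higher in batch 3. The log2 fold change was -0.36 ± 0.34 (limma adjusted p = 1.00), and 0.05 without WT replicate 1, the library with the highest promoter share.

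Crot held the strongest of the 45 regions, 43.9 kb upstream (chr5:9040484-9041620, intergenic), which ranked 558 among all 39704. It had 85.3, 116 and 95.8 normalized reads in AMPK-CA and 119, 130 and 91.7 in WT livers, with overlapping groups and a log2 fold change of -0.19 ± 0.25 (limma adjusted p = 1.00). The Crot promoter region (chr5:8996837-8997707), whose sequence is printed above, was weaker, with 14.5, 34.9 and 15.3 in AMPK-CA and 36.7, 15.0 and 23.4 in WT livers. Its sign differed between batches, and its log2 fold change was -0.22 with all libraries, 0.079 without WT replicate 1 and 0.29 in the blocked fit without batch 1.

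Within the same upstream stretch of Crot, a pair of weaker regions pointed in opposite directions in all 3 batches. The region 38.3 kb upstream (chr5:9035217-9035644) had 8.85, 9.70 and 1.39 normalized reads in AMPK-CA and 12.7, 20.2 and 21.6 in WT livers, from 11, 10 and 1 recovered reads against 19, 27 and 12. All AMPK-CA values were below all WT values, as in 3.27% of all regions. The log2 fold change was -1.42 ± 0.58 (limma adjusted p = 1.00, and 0.436 with the batch block), and -1.91 in the blocked fit without batch 1. The region 31.4 kb upstream (chr5:9028261-9028858) had 19.3, 34.9 and 30.6 in AMPK-CA and 6.67, 27.0 and 12.6 in WT livers. Few reads underlay its WT values in batches 1 and 3, where 1 read stood for 0.667 and 1.80 normalized reads. This region was higher in AMPK-CA in each batch, with overlapping groups. Its log2 fold change was 0.95 ± 0.47 (limma adjusted p = 1.00, and 0.562 with the block), or 0.53 without WT replicate 1. Between them in distance, the region 37.4 kb upstream, with a mean of 63.3 ± 3.23 in AMPK-CA and 72.3 ± 33.6 in WT livers, had a log2 fold change of -0.06, or -0.52 without WT replicate 1. This neighbour was named after its values were seen.

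**Figure D4:**
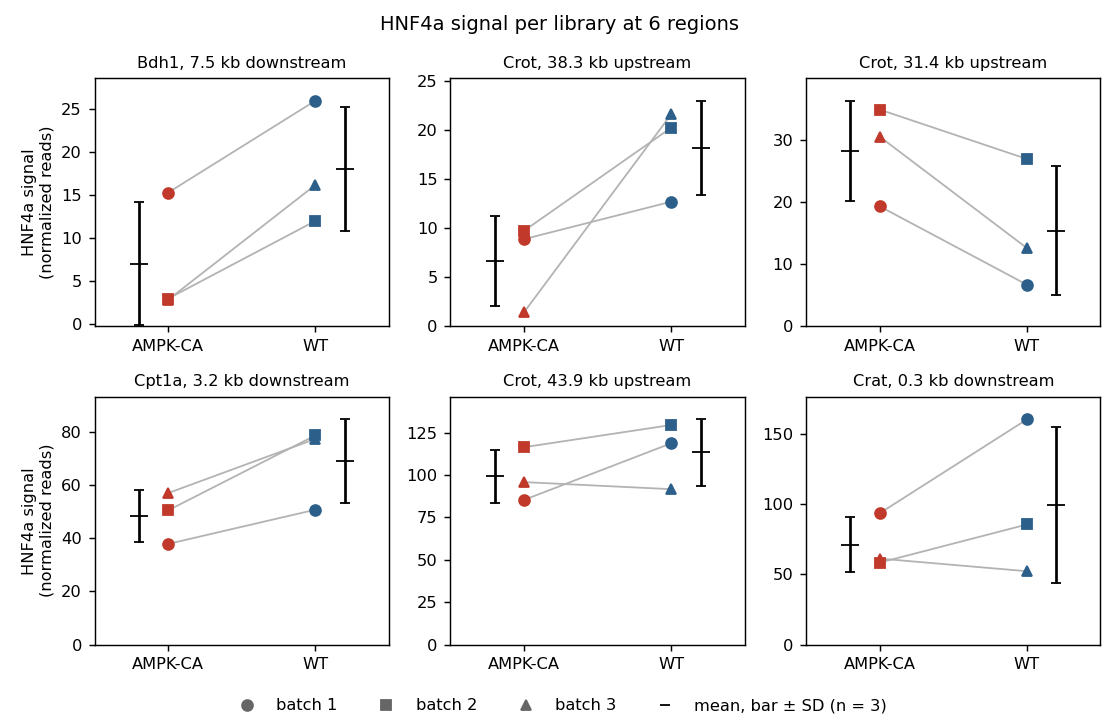
HNF4a signal in normalized reads at 6 regions of Bdh1, Crot, Cpt1a and Crat in the 3 AMPK-CA (red) and 3 WT (blue) libraries, joined by batch, with mean and SD in black. AMPK-CA is lower in every batch at Bdh1 7.5 kb downstream, Crot 38.3 kb upstream and Cpt1a 3.2 kb downstream, and higher in every batch at Crot 31.4 kb upstream.

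At Fgf21 the promoter region (chr7:45615243-45615840) was below the median of the table, with 18.5, 8.73 and 6.95 normalized reads in AMPK-CA and 22.7, 9.73 and 14.4 in WT livers. The strongest region, 4.45 kb downstream and beyond the end of the short gene (chr7:45610559-45611529), had 29.8, 49.5 and 34.7 in AMPK-CA and 34.7, 58.4 and 35.9 in WT livers. AMPK-CA was lower in each batch at both, the groups overlapped at both, and the limma adjusted p was 1.00 for each. At the strongest region the batch 3 gap was under 1 read, which stood for 1.39 (AMPK-CA) and 1.80 (WT) normalized reads. At the promoter the log2 fold change was -0.43, or -0.15 without WT replicate 1, and -0.16 at the strongest region, or -0.29 without it. A region 11.3 kb downstream (chr7:45603820-45604481), named after its values were seen, had 17.7, 14.6 and 16.7 in AMPK-CA and 22.7, 21.0 and 23.4 in WT livers, without overlap. Its log2 fold change was -0.42 ± 0.41 (limma adjusted p = 1.00, and 0.858 with the batch block), and in the authors' deposited table its p-value was 0.0005, not adjusted.

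The sign of the difference went with distance to the start site much as in the whole table. Of the 7 member regions within 1 kb, 6 had a negative log2 fold change, where 75.2% of all regions within 1 kb did. Beyond 1 kb it was 18 of 38, where 41.6% of all such regions did. In the blocked fit without batch 1 the counts were 5 of 7 and 22 of 38, and the table's shares were 56.7% and 48.8%. WT replicate 1, the library with the highest promoter share, is in batch 1, and its part in these signs was not tested.

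Across the 6 libraries, the genes whose strongest region varied most like the Crot region 43.9 kb upstream were Tle1, Mospd1 and Mlf2, with Pearson r of 0.996, 0.990 and 0.989 on the log2 scale. This describes 6 libraries that share 3 batches, and 13637 genes were compared.

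Of 29 further genes of these pathways, 25 had at least 1 region and 0 passed on their gene sums, without the block, as 0% of all gene sums did, or with it, against 0.066%. Their log2 fold changes were positive in 12, against 43.2% of all gene sums, and negative in 13, with a median of -0.004. At an unadjusted p under 0.05 there was 1 without the block, against 1.80% of all gene sums, and 3 with it, against 7.67%. Groups are ranked here by gene sum, which depends on the number of regions as well as on their strength. The 5 ketone body enzyme genes with a region (2 higher, 3 lower) were led by Aacs, the cytosolic acetoacetyl-CoA synthetase, with 150 ± 20.8 normalized reads in AMPK-CA and 169 ± 45.5 in WT livers. Aacs had 9 regions, the strongest with a mean of 37.7 over all libraries, whereas the only Bdh2 region had 96.5. The 4 ketone transporter genes (2 higher, 2 lower) were led by Slc16a7, a monocarboxylate transporter gene, with 293 ± 34.4 in AMPK-CA and 278 ± 79.1 in WT livers. The 6 genes of carnitine supply and carriers (4 higher, 2 lower) were led by Slc22a5, the plasma membrane carnitine transporter, with 220 ± 32.2 in AMPK-CA and 247 ± 29.1 in WT livers. The 3 genes that set malonyl-CoA (2 higher, 1 lower) were led by Acaca, with 138 ± 14.7 in AMPK-CA and 143 ± 35.8 in WT livers.

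The 7 genes of FGF receptors, their coreceptor and Fgf21 regulators (2 higher, 5 lower) held all 3 of the unadjusted calls. Each was lower in AMPK-CA, as 4.2% of all gene sums were at that p with the block. Fgfr4, the main FGF receptor of hepatocytes, had 46.7, 34.9 and 62.5 normalized reads in AMPK-CA and 153, 59.2 and 68.3 in WT livers at its 1 region, in intron 1 of 17. Its log2 fold change was -0.82 ± 0.34, with a limma p of 0.029 before adjustment and an adjusted p of 0.218 with the batch block, and it was -0.41 in the blocked fit without batch 1. Creb3l3, a liver transcription factor gene that acts on Fgf21 in fasting, had 251 ± 13.8 in AMPK-CA and 315 ± 55.2 in WT livers. Its groups did not overlap, as in 4.17% of all gene sums in that direction. Fgfr1 had 50.4 ± 17.7 in AMPK-CA and 75.8 ± 29.2 in WT livers. With the block, the limma adjusted p was 0.622 at Creb3l3 and 0.606 at Fgfr1. Their log2 fold changes, -0.31 and -0.55, were -0.17 and -0.28 without WT replicate 1. Ppara, the receptor that controls fatty acid oxidation and Fgf21, was bound most strongly of the group, with 628 ± 49.7 in AMPK-CA and 615 ± 66.4 in WT livers.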

How the data were processed

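The authors deposited, per the file headers, 1 table of 39704 regions in mm10 with a signal value per region for each of 6 libraries, the assigned gene, annotation and distance to the start site. Per the file headers, the authors averaged the AMPK-CA over WT ratio of the 3 batches for each region and added a p-value, with no adjustment. Tools named by the submitters' processing notes, with no roles or versions, include BWA, MACS2, SICER and HOMER (Trim Galore, Picard and deepTools are among the rest). The rule by which regions entered the table was not found in these sources. All deposited signal values (100%, within 1e-09) were whole multiples of 1 value per library, so whole reads were recovered. Total depth outside regions is unknown, and input was not analysed here.

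Limma 3.58.1 in R 4.3.3, with mean-variance trend and robust empirical Bayes, was fitted to log2(value + 1.80), a pseudocount set to 0.1 of the median value above 0, with Benjamini-Hochberg adjustment over all regions. Gene sums were fitted likewise over 13644 genes with a pseudocount of 4.04. Fold changes on this scale understate those of weak regions, and limma p-values draw on the trend over all regions as well as the spread between these libraries. Since the files hold signal, count tests on the recovered reads (edgeR 4.0.16 quasi-likelihood, DESeq2 1.42.0) served as alternatives. The labelled batch pairs the libraries. As a check, each library's deviation from its group mean was correlated over regions with that of its batch partner, giving r of 0.53, 0.49 and 0.05. Between libraries of different batches r ran from -0.49 to 0.11. The batch 3 partners were thus no more alike than AMPK-CA of batch 2 and WT of batch 3, at 0.11. No 2 libraries were duplicates (chi-square per degree of freedom 1.58 or more in 15 pairs). The fitting was tested on simulated data.

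The genes and lists were chosen with earlier results of these data known. For each member gene the strongest region and that nearest to the start site are given, and others where all 3 batches had 1 sign and the unadjusted p was under 0.05 with or without the block. The regions 3.23 kb downstream and 0.816 kb upstream of Cpt1a, 11.3 kb downstream of Fgf21 and 37.4 kb upstream of Crot fall outside this rule and were named after their values were seen. Of the further pathway genes, the 1 with the largest gene sum in each group and those with an unadjusted p under 0.05 are named. A gene sum depends on the number of regions as well as on their strength. Bdh2, Bsg and Aldh9a1 were named after their values were seen. Alternatives were other pseudocounts, scalings and filters, library weights, count tests, batch as a block, and each library or batch left out.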

Additional observations from a re-analysis of the deposited data

How the results depend on the processing

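Over all regions limma called 0, a count that was 23 with batch as a replicate block, 1 with quantile normalization, 922 with library weights, 24 by edgeR with the replicate block and 1 by DESeq2 with it. Leaving out 1 library gave 0 to 16 calls (16 without WT replicate 1), and the replicate block without batch 1, 2 or 3 gave 12, 2 and 7. Over gene sums the 0 calls became 9 with the replicate block, 1308 with library weights, 2 each by edgeR with the block and DESeq2 without and with it, 0 to 7 with 1 library left out (7 without WT replicate 1), and 11 with the block without batch 1. Among the 45 regions only library weights gave a call, 1, at the Crot region 38.3 kb upstream (log2 fold change -1.78, adjusted p 0.012). WT replicate 3, the shallowest library, had a weight of 3.46, against 0.253 for WT replicate 1. The cause was not tested.

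Signs were kept under all alternatives run at Bdh1 7.51 kb downstream (-2.04 to -0.55), both Crot regions 38.3 kb (-1.91 to -0.56) and 31.4 kb upstream (0.50 to 1.41), Cpt1a 3.23 kb downstream (-0.69 to -0.32) and the Acat1 and Fgf21 sums. They were also kept at Bdh1 2.63 kb upstream (-0.33 to -0.070) and the Bdh1 promoter (-0.52 to -0.15). The same held at Cpt1a 3.19 kb upstream (0.014 to 0.40), Cpt2 1.37 kb downstream (0.13 to 0.61) and Crot 43.9 kb upstream (-0.33 to -0.015). So it did at the Fgf21 promoter (-0.79 to -0.15) and Fgf21 11.3 kb downstream (-0.48 to -0.23). Bdh1 7.51 kb downstream and the Crot regions 38.3 and 31.4 kb upstream were picked partly for sharing 1 sign in all 3 batches. Cpt1a 3.23 kb and Fgf21 11.3 kb downstream were picked with their values in view. Where all 3 batches share 1 sign, a blocked fit without 1 batch must keep it. The kept signs at regions picked in these ways are thus no separate evidence of robustness. Signs at the regions and sums that follow reversed under at least 1 alternative. With 1 library left out, values spanned -0.066 to 0.53 at Acat1 2.98 kb, -0.60 to 0.080 at Acat1 5.20 kb, -0.86 to 0.080 at the Cpt2 exon, -0.74 to 0.052 at the Crat start site, -0.60 to 0.079 at the Crot promoter and -0.36 to 0.070 at Fgf21 4.45 kb. For sums the spans were -0.15 to 0.0062 at Bdh1, -0.10 to 0.30 at Cpt2, -0.67 to 0.10 at Crat and -0.14 to 0.18 at Crot. Library weights gave 0.0036 at the Cpt1a region nearest the start site, 0.23 at the Crat start site and 0.34 at the Crat sum. The replicate block without batch 1 gave 0.29 at the Crot promoter and -0.033 at the Crot sum, without batch 2 -0.063 at the Cpt2 sum, and without batch 3 0.062, -0.040 and -0.024 at the Bdh1, Cpt2 and Crot sums. Counting only the strongest region gave 0.17 for Cpt1a and -0.18 for Crot, and only regions within 10 kb -0.21 for Crot.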
